A study of Saccharomyces cerevisiae with 222 samples.

Results

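Away from the annotated replication origins, most EdU summits called in S phase in control and CDK bypass cells lay in Ty retrotransposons. Their share of the summits away from origins was 65.9% to 75.4% per list, while in CDK/DDK bypass cells 2 of 10 and 1 of 14 lay there. Over all nuclear summits, Ty elements also held fewer in CDK/DDK bypass (2.42% and 2.63%) than in control and CDK bypass (20.4% to 32.1% per list). Outside Ty elements, 6 sites had a summit in every list. The summits described here are the entries of the 6 S-phase EdU summit lists that lay on chromosome arms (more than 50 kb from both chromosome ends and more than 40 kb from the centromere, chromosome 12 left out) and more than 8 kb from every annotated ARS. They numbered 245 of 2434 summits in all, or of 1209 summits on chromosome arms. An ARS (autonomously replicating sequence) is a stretch of DNA that can act as an origin, and 352 such features of the R64 (sacCer3) annotation of the nuclear chromosomes were used. The paper took its origin positions from oriDB instead. Whether the summits described here also lie far from the origins in oriDB was not tested. The rule used positions only and no score. Where windows overlapped, with 5 kb taken on each side of a summit, the 245 summits merged into 33 sites.

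The data describe where budding yeast made DNA early in S phase, after cells had or had not been induced to replicate DNA in G1. Cells of all 3 groups were held in G1 by the mating pheromone α-factor in raffinose medium and given galactose for 3 h. They then entered S phase for 90 min in medium that held EdU at 100 µM and hydroxyurea (HU) at 200 mM. EdU takes the place of thymidine in newly made DNA and can be pulled down, and HU depletes nucleotides so that forks move slowly. Each group was represented by 2 replicates of a single strain in the W303 background. Control cells (strain E3087) take up EdU and carry no bypass construct. CDK bypass cells (YKR1445) expressed Dpb11 and Sld2-T84D, a version of Sld2 that mimics its phosphorylation by cyclin-dependent kinase (CDK), from the galactose-inducible pGAL1-10 promoter. CDK/DDK bypass cells (YKR1447) expressed in addition Dbf4, the regulatory subunit of the Dbf4-dependent kinase (DDK). The question was whether summits far from these annotated origins recurred between lists, where in genes they lay, and whether this differed between the groups. Nothing in the labels says whether replicates came from separate cultures, so the spread between them may be partly technical.

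In budding yeast, replication starts at origins that the origin recognition complex binds through the ARS consensus, and CDK and DDK then activate the loaded helicase. With HU, forks stay close to the origins that fired, so that EdU-labeled DNA piles up around early origins. Ty elements are retrotransposons that move through an RNA copy and are flanked by long terminal repeats (LTRs). Ty1 to Ty4 insert preferentially upstream of genes transcribed by RNA polymerase III, above all tRNA genes, and many copies are nearly identical in sequence.

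To show what these sites look like, the 300 bases around the best summit are printed for the pair of sites with the highest scores among those called in all 6 lists (bases of the named gene in capitals), and for the only site outside Ty elements whose best summit had the ARS consensus in this window (match in capitals). All are from the R64 reference as given by RefSeq.
ASE1 site (chr15:436166-436465, + strand): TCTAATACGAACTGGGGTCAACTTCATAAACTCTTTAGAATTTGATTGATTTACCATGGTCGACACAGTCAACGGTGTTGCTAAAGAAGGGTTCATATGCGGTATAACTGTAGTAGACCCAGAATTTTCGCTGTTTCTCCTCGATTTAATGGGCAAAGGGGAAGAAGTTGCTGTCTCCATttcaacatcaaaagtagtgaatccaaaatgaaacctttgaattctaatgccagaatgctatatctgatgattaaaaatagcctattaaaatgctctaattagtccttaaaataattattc
tRNA-Trp site (chr11:302845-303144, + strand): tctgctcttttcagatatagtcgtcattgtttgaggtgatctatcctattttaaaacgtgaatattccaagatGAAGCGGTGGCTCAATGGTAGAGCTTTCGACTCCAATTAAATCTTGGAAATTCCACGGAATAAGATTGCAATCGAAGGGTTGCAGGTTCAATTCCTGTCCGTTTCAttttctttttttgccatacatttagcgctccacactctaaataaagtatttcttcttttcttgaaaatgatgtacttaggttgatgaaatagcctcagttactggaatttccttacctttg
MTC2/YKL097C site (chr11:258660-258959, + strand): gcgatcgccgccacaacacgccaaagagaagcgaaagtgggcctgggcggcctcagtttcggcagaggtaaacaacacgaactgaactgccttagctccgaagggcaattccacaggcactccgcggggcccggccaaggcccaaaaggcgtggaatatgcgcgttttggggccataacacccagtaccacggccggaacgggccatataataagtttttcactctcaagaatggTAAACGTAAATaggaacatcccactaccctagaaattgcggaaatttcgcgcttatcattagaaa
The ASE1 window covers the start of ASE1, which lies on the minus strand (chr15:433688-436345) and encodes a microtubule-bundling protein of the mitotic spindle. The second window covers the whole tRNA-Trp gene YNCK0010W (chr11:302918-303023, 106 bases). In the third, the match lies on the reverse strand, centred 90 bases from the summit.

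Some Ty1 copies with summits shared sequence. A summit lay within the first 600 bases of 5 Ty1 copies. The 75 bases (the read length) around the control replicate 1 summit of YDRCTy1-1 are printed in element direction beside the best matching stretch of the other copies, with bases that differ from the first copy in capitals.
YDRCTy1-1 (chr4:650952-651026, - strand): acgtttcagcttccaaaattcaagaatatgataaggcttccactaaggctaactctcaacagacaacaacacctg
YDRCTy1-2 (chr4:883753-883827, - strand): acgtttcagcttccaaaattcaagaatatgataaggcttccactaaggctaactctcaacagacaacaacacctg
YDRWTy1-4 (chr4:1096164-1096238, + strand): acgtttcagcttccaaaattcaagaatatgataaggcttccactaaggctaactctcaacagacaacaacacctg
YGRCTy1-3 (chr7:822841-822915, - strand): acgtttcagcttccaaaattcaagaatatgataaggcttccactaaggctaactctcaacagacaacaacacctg
YPLWTy1-1 (chr16:56848-56922, + strand): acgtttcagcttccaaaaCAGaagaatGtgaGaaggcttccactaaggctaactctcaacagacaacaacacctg
The first 4 copies were identical over these 75 bases, and YPLWTy1-1 differed at 5 of them. The only YPLWTy1-1 summit in its first 600 bases lay 181 bases from the start, in 1 list. That is outside the printed stretch, whose centre lies 433 bases from the start. Summits in the first 600 bases of the other 4 copies lay 293 to 538 bases from the start, so some of these were also outside it. A read that lies within the identical bases cannot by itself be placed in 1 copy, although its mate may differ between copies.

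Control lists held 41 and 69 of these summits, CDK bypass lists 45 and 66, and CDK/DDK bypass lists 10 and 14. The control and CDK bypass lists covered nearly the same range, and both CDK/DDK bypass lists lay below all 4 of them. The means were 55 ± 19.8 (SD, n = 2) in control, 55.5 ± 14.8 (SD, n = 2) in CDK bypass and 12 ± 2.83 (SD, n = 2) in CDK/DDK bypass. CDK/DDK bypass minus control was -43 summits, with an exact two-sided permutation p = 0.33 (adjusted over 3 comparisons 0.5). CDK/DDK bypass minus CDK bypass was -43.5, with the same exact permutation p of 0.33 (adjusted 0.5), and CDK bypass minus control was 0.5 (exact permutation p = 1, adjusted 1). With 2 lists against 2, no p below 0.33 can be reached, so no difference between groups could pass a conventional threshold.

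As a share of all arm summits, they made up 21.8% and 29.2% in control, 19.8% and 26.6% in CDK bypass, and 7.19% and 8.19% in CDK/DDK bypass. The shares of CDK/DDK bypass again lay below all others. The share in CDK/DDK bypass was lower than in control by 17.8 percentage points and lower than in CDK bypass by 15.5 (exact permutation p = 0.33 for each, adjusted 0.5). CDK bypass was lower than control by 2.3 points (exact permutation p = 0.667, adjusted 0.667), less than the spread between replicates.

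**Figure D1:**
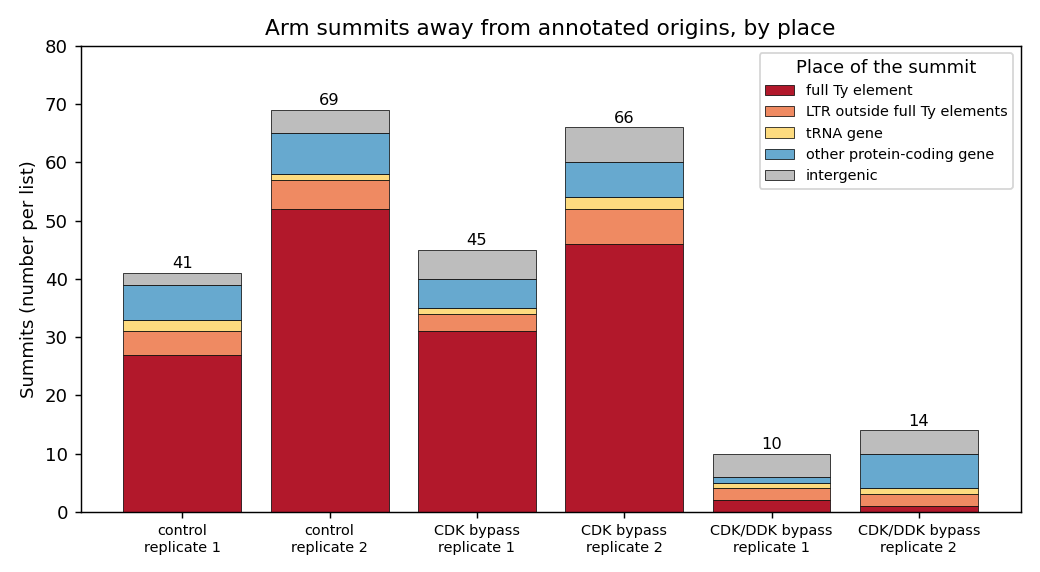
Number of arm summits away from annotated origins in each of the 6 lists (vertical axis), stacked by the annotation at the summit. Ty elements hold 27 to 52 summits in each control and CDK bypass list, and 2 and 1 in the CDK/DDK bypass lists.

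Ty elements held 159 of the 245 summits (64.9%), while they cover 2.23% of the 5229 kb of arm sequence that the rule leaves eligible. The other summits lay in LTRs outside full elements (22), in tRNA genes (8), in other protein-coding genes (31) and in intergenic DNA (25). By list, Ty elements held 65.9% and 75.4% of the summits in control, 68.9% and 69.7% in CDK bypass, and 20% and 7.14% in CDK/DDK bypass, that is 2 of 10 and 1 of 14 summits. The difference from control was -57 percentage points for CDK/DDK bypass (exact permutation p = 0.33, adjusted 0.5) and -1.32 for CDK bypass (exact permutation p = 1, adjusted 1). This comparison was chosen after the values were seen. The background is the share of all nuclear summits inside a Ty element, which was 18.4% over the 6 lists. It was 20.4% and 32.1% in control, 20.9% and 28.3% in CDK bypass, and 2.42% and 2.63% in CDK/DDK bypass. Fewer Ty summits in CDK/DDK bypass were thus also seen over all nuclear chromosomes.

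Counted by element, 24 of the 50 full Ty elements had eligible bases. Summits away from origins lay in 19 and 21 of these 24 in control, in 20 and 21 in CDK bypass, and in 2 and 1 in CDK/DDK bypass. Counting any nuclear summit, 21 and 23 of the 24 elements held one in control, 22 and 23 in CDK bypass, and 3 and 3 in CDK/DDK bypass. Of the other 26 elements, counted the same way, 21 and 22 had a summit in control, 22 and 24 in CDK bypass, and 2 and 4 in CDK/DDK bypass. Control and CDK bypass lists thus had a summit in most copies and CDK/DDK bypass lists in few, inside and outside the eligible arms. By family, 14 of 15 eligible Ty1 elements, 5 of 6 Ty2, 1 of 2 Ty3 and the 1 eligible Ty4 held a summit in at least 1 list. In total, 17 elements had a summit away from origins in all 4 control and CDK bypass lists and in neither CDK/DDK bypass list. Of the 3 eligible elements without such a summit, YMRCTy1-3 had none at all in any list, while YGRWTy3-1 and YORWTy2-2 had summits only in their parts nearer to an ARS, a centromere or a chromosome end.

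Along Ty1, the 95 summits were spread unevenly. The first 30% of the element held 47 of them (49.5%, in 10 elements) and the last 20% held 30 (31.6%, in 9 elements), while none lay between 30% and 50%. Both CDK/DDK bypass summits in Ty1 lay in YNLWTy1-2 on chromosome 14, about 3 kb from the start of the element, at positions 522208 and 522195. CDK bypass replicates had summits at 522208 and 522191 there, and further ones at 524639 and 524631. Control replicates had theirs at 524622 and 524546 only, near the end of the same element.

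**Figure D2:**
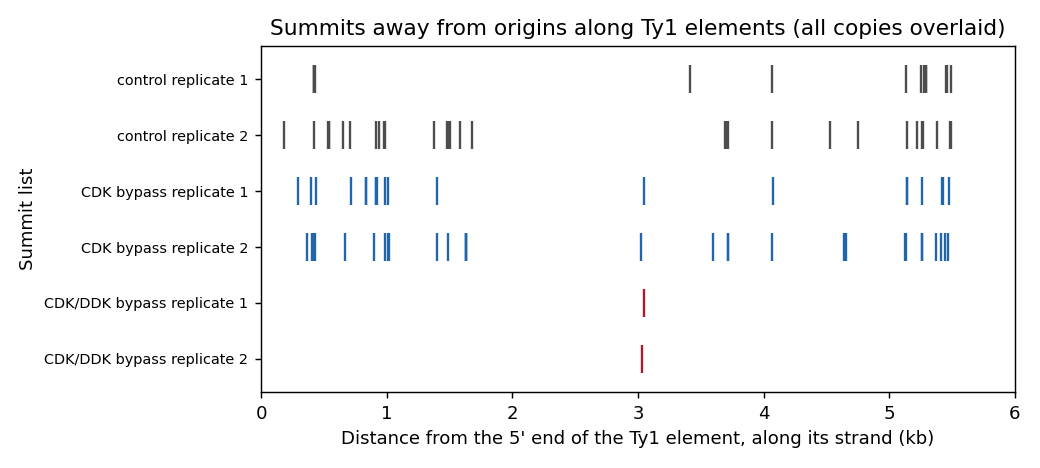
Position of each summit along Ty1 elements, in kb from the 5' end along the strand of the element, with all copies overlaid and 1 line per list. Control and CDK bypass summits gather near both ends, and the CDK/DDK bypass lists have 1 summit each, about 3 kb from the start.

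The 75 bases around a summit occurred more than once in the nuclear genome for 155 of the 159 summits in Ty elements (97.5%), with a median of 15 copies. Outside Ty elements this was so for 14 of 86 (16.3%), of which 12 lay in LTRs and 2 in the tRNA-Trp gene. Among other arm summits outside Ty elements, those 8 kb or less from an ARS, the share was 4.06% (34 of 838). With Ty elements included, it was 14.6% among other arm summits, 27.1% among all nuclear summits and 2.64% among eligible bases. Whether the sharing of reads between copies sets the calls in Ty elements was not tested. The copies were counted in the S288C-derived reference, and the strains were W303, whose Ty insertions can differ.

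Without the Ty summits, 86 remained: 14 and 17 in control, 14 and 20 in CDK bypass, and 8 and 13 in CDK/DDK bypass. CDK/DDK bypass was lower than control by 5 summits and lower than CDK bypass by 6.5 (exact permutation p = 0.33 for each, adjusted 0.5). As a share of arm summits outside Ty elements, they made up 9.72% and 11.4% in control, 8.28% and 11.98% in CDK bypass, and 6.06% and 7.98% in CDK/DDK bypass. The distance between the groups was therefore much smaller outside Ty elements, and CDK/DDK bypass was still lowest. Of these 86 summits, 45 (52.3%) lay within 1 kb of a tRNA gene. This was so for 3.36% of the eligible bases outside Ty elements, 16.3% of other arm summits outside Ty elements and 15.7% of all nuclear summits. Summits of 1 site in several lists were counted separately here, so they are not independent. By site, 9 of the 16 sites outside Ty elements had their best summit within 1 kb of a tRNA gene. The list ranges were 7 of 14 and 11 of 17 in control, 6 of 14 and 12 of 20 in CDK bypass, and 4 of 8 and 5 of 13 in CDK/DDK bypass.

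Summits that recurred between replicates were the rule. Within control, 96.4% of the summits had a partner in the other replicate (windows of 5 kb on each side, overlap of at least 1 bp), within CDK bypass 95.5%, and within CDK/DDK bypass 79.2%. The background for all nuclear summits was 98.5%, 97.7% and 95.1%. In control and CDK bypass, summits away from origins therefore recurred nearly as often as summits in general, while in CDK/DDK bypass the value was lower, over 24 summits.

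Between groups, CDK bypass and control shared 97.3% ± 1.61 (SD over 4 pairs of lists, 95.6% to 98.8%). CDK/DDK bypass shared 37.5% ± 9.19 with control (28.9% to 47.1%) and 37.3% ± 4.82 with CDK bypass (31.6% to 41.8%). The background was 95.8%, 72.4% and 74.8% of all nuclear summits, and other arm summits gave 95.1%, 85.7% and 86.8%. Since the lists differ in length, the share of each list was also taken. Of the CDK/DDK bypass summits, 78.6% to 100% had a partner in a control list and 78.6% to 100% in a CDK bypass list. Of the control summits, 18.8% to 34.1% had one in a CDK/DDK bypass list, and of the CDK bypass summits 21.2% to 28.9%. All 10 summits of CDK/DDK bypass replicate 1 had a partner in each control and CDK bypass list, and of the 14 of replicate 2, 78.6% had one in each control list and in CDK bypass replicate 1 and 92.9% in CDK bypass replicate 2. Over all nuclear summits, 73.7% to 76.8% of a CDK/DDK bypass list was matched in a control list and 64.0% to 75.8% of a control list in a CDK/DDK bypass list. For other arm summits these shares were 89.8% to 95.3% and 75.4% to 85.7%. Against CDK bypass, they were 73.1% to 79.2% and 68.1% to 78.6% over all nuclear summits, and 92.4% to 93.8% and 77.5% to 86.3% for other arm summits. The comparisons share lists and are set side by side only.

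Concordance within groups exceeded that between groups by 50.3 percentage points for CDK/DDK bypass and control and by 50.1 for CDK/DDK bypass and CDK bypass (exact one-sided permutation p = 0.33 for each, the smallest that 3 ways to pair 4 lists allow, adjusted over 4 tests 0.444). For CDK bypass and control it was -1.38 points (exact permutation p = 1, adjusted 1), so replicates resembled each other no more than lists of different groups. Over all 3 groups it was 32.98 points (exact permutation p = 0.2 over 15 ways, adjusted 0.444). Without Ty summits, a choice made after seeing the data, CDK/DDK bypass shared 62.1% with control and 65.8% with CDK bypass.

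**Figure D3:**
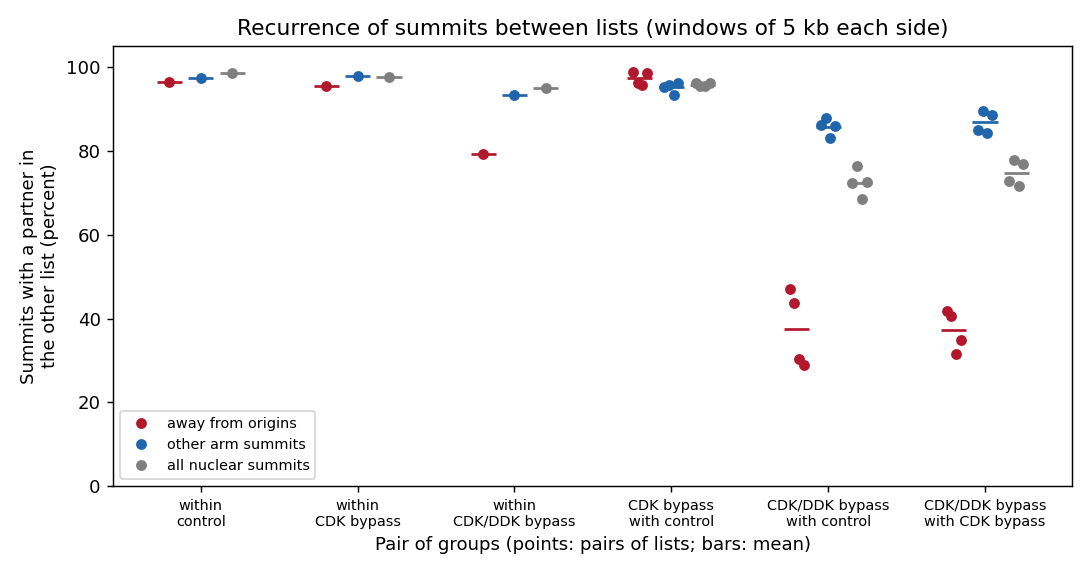
Percent of summits with a partner in the other list (vertical axis) for each pair of lists, grouped by pair of groups, for summits away from origins, other arm summits and all nuclear summits. Points are pairs of lists and bars are means. CDK/DDK bypass shares 37.5% with control and 37.3% with CDK bypass, against 97.3% between CDK bypass and control.

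Of the 33 sites, 8 were called in all 6 lists, 2 in 5, 16 in 4, 4 in 2 and 3 in 1. All 16 sites of 4 lists were those of both control and both CDK bypass lists, of which 13 consisted mostly of Ty summits. No site was called in both lists of CDK/DDK bypass and in no control list (0), none in both lists of CDK bypass and no control list (0), and none in both control lists and no CDK bypass list (0). No test was run on these counts, and sites of other arm summits or of all nuclear summits were not counted. By summit, 18.8% to 34.1% of a control list away from origins had a partner in a CDK/DDK bypass list. Over all nuclear summits this was 64.0% to 75.8%, so control summits without a partner there were not limited to these sites.

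**Figure D4:**
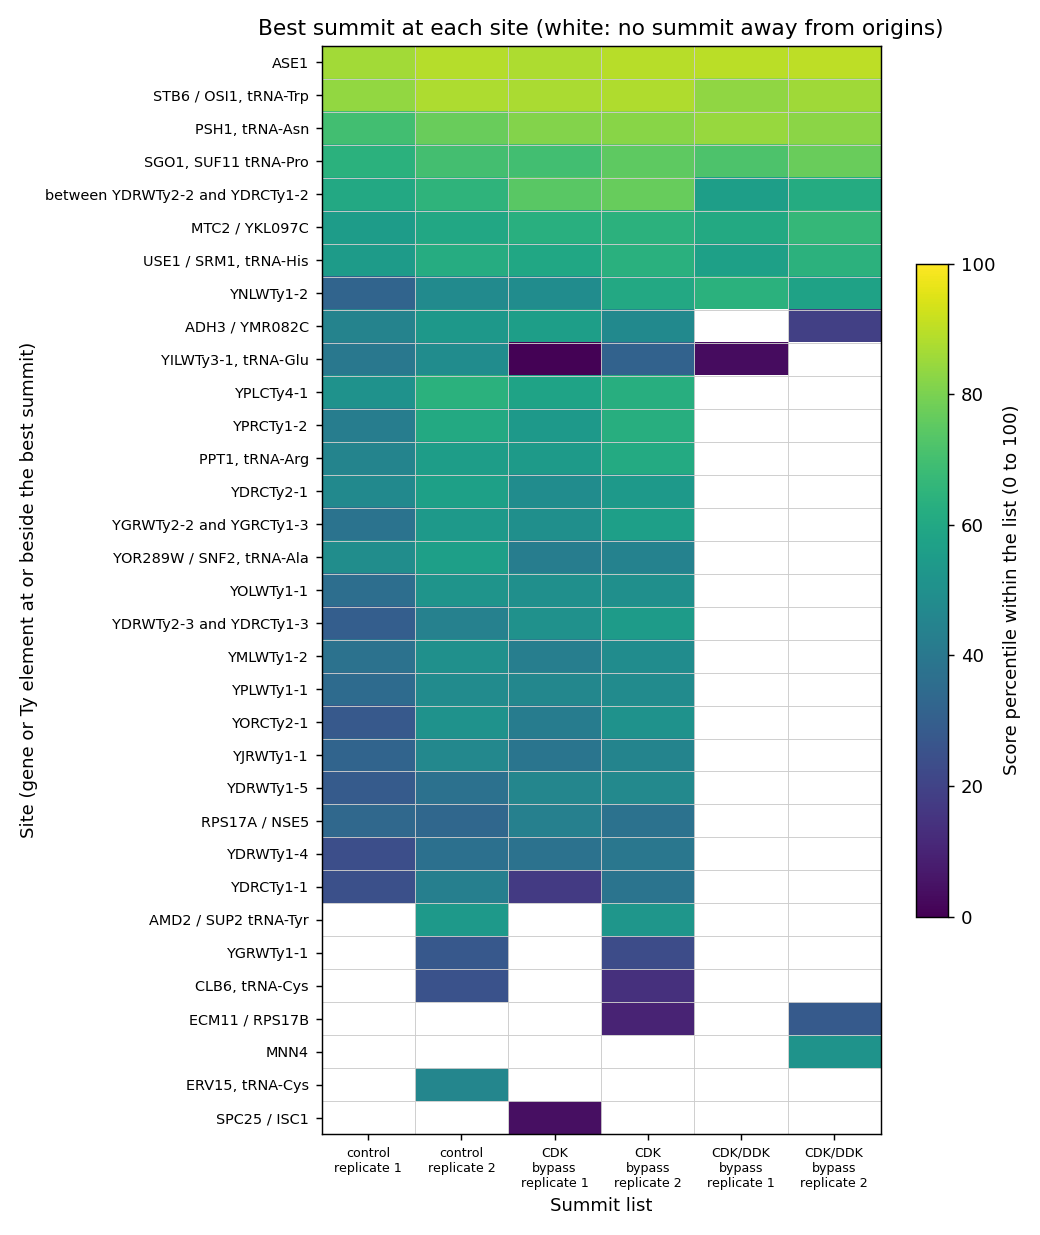
Score percentile of the best summit at each of the 33 sites (lines, named by gene or Ty element) in each of the 6 lists (columns). White means that the list had no summit away from origins at the site. The sites at the top, from ASE1 to YNLWTy1-2, are called in all 6 lists, and a block of 16 sites is called in the 4 control and CDK bypass lists only.

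Scores are −log10 q-values of the peak caller and are comparable only by rank, so each was expressed as its percentile among the nuclear summits of its own list. At the ASE1 site, the best summit had a score of 1535 in control replicate 1 and 1915 in replicate 2. Scores were 711.3 and 925.6 in CDK bypass, and 190.7 and 195.9 in CDK/DDK bypass. As percentiles these were 86.0 and 88.9, 87.7 and 89.3, and 89.6 and 89.9, so the site ranked alike in all lists. It was the highest-ranked site, 53.4 kb from the nearest ARS (ARS1501) and 98.8 kb from the next (ARS1513). The 6 best summits lay between 436302 and 437747 on chromosome 15. Those of control replicate 1, CDK bypass replicate 1 and CDK/DDK bypass replicate 2 lay in ASE1. The others lay in intergenic DNA beyond its start and outside the printed window, at 437731 in control replicate 2, 437747 in CDK bypass replicate 2 and 436603 in CDK/DDK bypass replicate 1. The summits at 437731 and 437747 were 912 and 896 bp from the tRNA-Lys gene YNCO0016W.

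At the tRNA-Trp gene YNCK0010W, between STB6 and OSI1, the best summit had a score of 1357 and 1832 in control, 630.2 and 794.4 in CDK bypass, and 85.8 and 129.6 in CDK/DDK bypass. The percentiles were 83.8 and 87.6, 87.2 and 87.9, and 83.5 and 85.7. All 6 summits lay within 23 bp of each other, inside the gene, and 26.7 kb from ARS1109. The 75 bases around the CDK/DDK bypass summits also occurred elsewhere in the genome, and those around the other 4 did not.

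The site at PSH1, which encodes a ubiquitin ligase for the centromeric histone Cse4, lay on chromosome 15 between ARS1510 and ARS1511, 49.5 kb from the latter. Percentiles were 69.7 and 77.2 in control, 81.3 and 82.1 in CDK bypass, and 84.7 and 82.5 in CDK/DDK bypass. All 4 bypass values lay above both control values. Of the best summits, 4 lay in an LTR between the tRNA-Gly gene YNCO0004C and the tRNA-Asn gene YNCO0005W, 1 lay in YNCO0004C and 1 in PSH1. At SGO1, whose product shugoshin protects centromeric cohesion, percentiles were 64.0 and 70.3 in control, 69.6 and 75.1 in CDK bypass, and 72.1 and 77.0 in CDK/DDK bypass. Both CDK/DDK bypass values lay above both control values, and the CDK bypass range overlapped with both. Of the best summits, 4 lay in SGO1 and 2 in the intergenic DNA around SUF11, a tRNA-Pro gene beside it, and the highest lay 24.9 kb from ARS1501.

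The other sites called in all 6 lists ranked in the middle. Between the elements YDRWTy2-2 and YDRCTy1-2 on chromosome 4, percentiles were 60.2 and 64.9 in control, 74.5 and 76.7 in CDK bypass and 56.2 and 61.7 in CDK/DDK bypass. Of the 6 best summits, 5 lay in the intergenic DNA between the elements, from position 877789 to 877913, and the 75 bases around each occurred once in the genome. At MTC2 and YKL097C on chromosome 11 the range over lists was 55.2 to 66.7. Upstream of the tRNA-His gene YNCG0011W, in an LTR between USE1, a SNARE gene, and SRM1, the exchange factor of the Ran GTPase, it was 54.9 to 64.3, and the 6 summits lay within 5 bp. At YNLWTy1-2 it was 32.4 to 63.7, with the control replicate 1 value lowest.

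Among the 16 sites called in the control and CDK bypass lists only, the 5 with the highest mean percentile were the Ty4 element YPLCTy4-1, YPRCTy1-2, an LTR upstream of the tRNA-Arg gene YNCG0032W beside PPT1 (a protein phosphatase gene), YDRCTy2-1, and the pair YGRWTy2-2 and YGRCTy1-3. At YPLCTy4-1 on chromosome 16 the best summits had percentiles of 50.8 and 63.9 in control and 58.0 and 62.9 in CDK bypass. At PPT1 they had 45.3 and 55.5 in control and 54.7 and 61.2 in CDK bypass. Control and CDK bypass values overlapped at both. For 5 of the 16 sites, a CDK/DDK bypass list had some nuclear summit within 10 kb, and for the other 11 neither list had one. A missing entry is a missing call and does not show that EdU was absent.

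Outside Ty elements, 3 sites were called in the same 4 lists. These were the one at PPT1, one at RPS17A and NSE5 on chromosome 13, and one on chromosome 15. The site on chromosome 15 lay at YOR289W and the tRNA-Ala gene YNCO0029C and reached into SNF2, the ATPase gene of the SWI/SNF remodeler. Its lower-ranked summits in control replicate 1 and both CDK bypass lists lay inside SNF2. RPS17A encodes a protein of the small ribosomal subunit and NSE5 a subunit of the Smc5/6 complex. At RPS17A and NSE5 the percentiles were 33.8 and 33.5 in control and 43.5 and 37.7 in CDK bypass. A site at the paralog RPS17B and its neighbor ECM11, a meiotic gene, on chromosome 4 was called in CDK bypass replicate 2 and CDK/DDK bypass replicate 2 at percentiles of 9.84 and 28.2. These sites were picked after their values were seen. At a site on chromosome 13, 5 lists had their best summit in the intergenic DNA between YMR082C and ADH3, the mitochondrial alcohol dehydrogenase gene. Percentiles ranged from 19.1 in CDK/DDK bypass replicate 2 to 55.9 in CDK bypass replicate 1, and CDK/DDK bypass replicate 1 had no summit at this site.

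The 3 sites of a single list had percentiles from 4.01 to 51.4. The highest was in MNN4, a gene of mannosylphosphate transfer to cell wall glycans, in CDK/DDK bypass replicate 2 (chromosome 11, position 64202). It was also the summit nearest to the limit of the rule, 8285 bp from its ARS. The nearest summit beyond the limit lay 7945 bp from an ARS, in control replicate 2, at position 707367 on chromosome 7. The same list had a summit that met the rule at 706871, in the intergenic DNA beside CLB6, an S-phase cyclin gene. This site counted as called in 2 lists, control replicate 2 and CDK bypass replicate 2, although control replicate 1, CDK bypass replicate 1 and CDK/DDK bypass replicate 2 also had summits there between 7808 and 7938 bp from the ARS.

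Score percentiles of all these summits had medians of 32.4 and 37.4 in control, 42.5 and 38.0 in CDK bypass, and 62.3 and 59.7 in CDK/DDK bypass. Medians of the other arm summits were 50.3, 55.9, 49.6, 53.7, 63.3 and 59.6 in the same order. In control and CDK bypass, summits away from origins thus ranked below those near origins, and in CDK/DDK bypass they ranked about level. The difference was 26.1 points for CDK/DDK bypass against control, 20.8 for CDK/DDK bypass against CDK bypass and 5.37 for CDK bypass against control (exact permutation p = 0.33 for each, adjusted 0.33). Without summits of repeated 75 bases, a choice made after seeing the data, these were 2.87, 5.14 and -2.27. Ty summits had medians of 28.8 and 33.9 in control and 37.3 and 37.2 in CDK bypass, and the other summits medians of 51.9 and 53.6 in control, 57.8 and 45.7 in CDK bypass, and 66.5 and 61.7 in CDK/DDK bypass. No Ty summit exceeded a percentile of 64.9 in any list, while the highest outside Ty elements lay between 86.0 and 89.9 in every list.

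**Figure D5:**
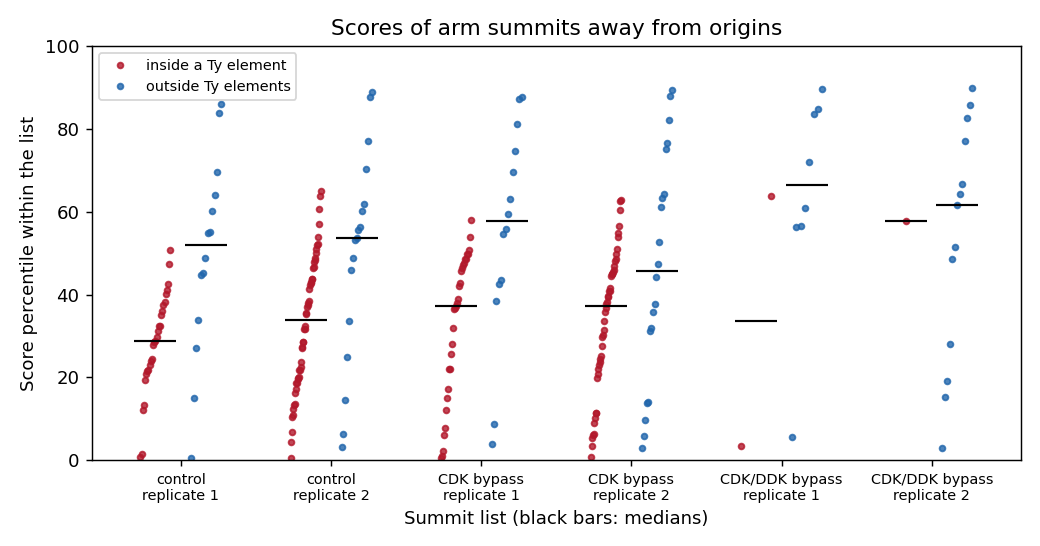
Score percentile (vertical axis, 0 to 100, within the nuclear summits of the list) of every summit away from origins, split into those inside and outside Ty elements. Points are summits and black bars are medians. Ty summits lie at or below 64.9, and the highest other summits lie between 86.0 and 89.9 in each list.

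Inside protein-coding genes lay 70.7% and 76.8% of the summits in control, 71.1% and 66.7% in CDK bypass, and 30% and 50% in CDK/DDK bypass, against 76.9% of eligible bases and 60.3% of all nuclear summits. The value in CDK/DDK bypass was lower than in control by 33.8 points and lower than in CDK bypass by 28.9 (exact permutation p = 0.33 for each, adjusted 0.5), and that in CDK bypass was lower than in control by 4.88 (exact permutation p = 0.667, adjusted 0.667). The annotation counts the reading frames of Ty elements as protein-coding genes. Without Ty elements, 31 of 86 summits (36.0%) lay in genes, against 76.7% of eligible bases outside Ty elements. By list these were 42.9% and 41.2% in control, 35.7% and 30% in CDK bypass, and 12.5% and 46.2% in CDK/DDK bypass. Both CDK bypass values lay below both control values, and those of CDK/DDK bypass lay on either side of all others.

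Of the gene lists, none of the genes of the bypass constructs (DPB11, SLD2, DBF4, GAL1, GAL10), of other galactose metabolism, of ribonucleotide reductase and the hydroxyurea response, of histones, of glycolysis or of common markers had a summit inside or within 1 kb in any list (0). Few of their members had eligible bases: 4 construct genes, 2 galactose genes, 5 ribonucleotide reductase and HU genes, 2 histone genes, 4 glycolytic genes and 1 marker gene. Of 138 ribosomal protein genes, 60 had eligible bases, and 8 of the 245 summits lay within 1 kb of RPS17A or RPS17B. By list these were 1 and 3 in control, 0 and 3 in CDK bypass, and 0 and 1 in CDK/DDK bypass. All those near RPS17A belonged to the 1 site at RPS17A and NSE5, and the CDK/DDK bypass summit was the only one near RPS17B. The share of all nuclear summits near ribosomal protein genes was not counted. Within 1 kb of tRNA genes lay 70 of the 245 summits (28.6%, against 15.7% of all nuclear summits), of other non-coding RNA genes 0, and of Ty elements or LTRs 204 (83.3%, against 31.4%).

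The ARS consensus, an 11-base motif searched on both strands without mismatch, occurred in the 300 bases around 5 of the 86 summits outside Ty elements (5.81%) and around 0 of the 159 in Ty elements, against 1.53% of 300-base tiles of eligible sequence and 7.99% of other arm summits. Summits of 1 site in several lists were counted separately here, so these windows are not independent. The match at MTC2 and YKL097C was counted for control replicate 2, both CDK bypass lists and CDK/DDK bypass replicate 2. Counted by site, 1 of the 16 sites outside Ty elements (6.25%) had the consensus at its best summit, that at MTC2 and YKL097C printed above. A missing match says only that these letters were not in the window.

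By chromosome, the sites lay on 11 of the 15 chromosomes with eligible bases. Chromosomes 1, 3, 6 and 8 had none, over 397.5 kb of eligible sequence. Chromosome 4, with 875.8 of the 5229 kb the most eligible of all, held 81 of the 245 summits. Chromosome 15, with 655.4 kb, held 43. The sites of chromosome 4 with the most summits held 20, 18 and 15, of which 20, 13 and 15 lay in Ty elements. The share of all nuclear summits on each chromosome was not counted. CDK/DDK bypass lists had 4 and 5 of their summits on chromosome 15, at the ASE1, SGO1 and PSH1 sites, and 1 and 3 on chromosome 4.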

How the data were processed

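As the methods state, the authors sequenced EdU-labeled and total DNA as 75 bp paired-end reads, aligned them to sacCer3 with BWA 0.7.17-r1188 and called peaks per sample with MACS2 2.2.7.1 against the total DNA of that sample (stated q-value limit 0.1, although the lowest score of a list was 1.31 to 1.88, which is stricter). Replicates were not pooled. The deposited lists give each summit's position and score, −log10 of the q-value. They hold no read counts, so depth is unknown and no counting interval could be given. The other 216 of 222 samples were not analysed here.

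Summits were placed on the R64 reference (annotation R64-5-1), counted from 1. Windows of 5 kb on each side followed the study. Groups were compared by exact permutation over lists with Benjamini-Hochberg adjustment. Analyses were written in Python 3.11.15 with numpy 2.4.6, tested on simulated data and, for overlaps, checked against bedtools 2.31.1.

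Sites named were those called in all 6 lists, at most 5 of each other pattern shared by both lists of a group, ranked by mean percentile, and the highest of the sites of 1 list; others named were picked after their values were seen. The members, gene lists and rules were chosen with earlier results of these data known.

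Alternatives were a score of at least 2, ARS distances of 5 and 12 kb, 1 summit per 5 kb, equal list lengths, windows of 1 and 2.5 kb, an overlap of at least 50% of a window, any nuclear summit as partner, any annotated gene, 1 value per site, a replicate block and leaving out each list. Leaving out summits in Ty elements or with repeated 75 bases, and the share in Ty elements, were added after seeing the data.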

Additional observations from a re-analysis of the deposited data

How the results depend on the processing

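The exact permutation tests of group differences cannot go below 0.33 with 2 lists a group, so only directions and sizes can be compared. The differences of CDK/DDK bypass from control and from CDK bypass kept their sign in summit number, share of arm summits, share in genes, score percentile and share in Ty elements, under every alternative run on them, but not their size. Without Ty summits, CDK/DDK bypass minus control and minus CDK bypass were -5 and -6.5 in number, -3.55 and -3.11 in share of arm summits, -12.7 and -3.53 in share in genes, and 11.4 and 12.3 in percentile. Without repeated 75 bases they were -3.5 and -4.5, -2.96 and -2.22, -18 and -3.93, and 2.87 and 5.14. Of the differences between CDK bypass and control, that in the share in genes kept its sign in 16 of 16 alternatives and the others did not. The difference in number was 0 with an ARS distance of 12 kb and -8 with equal list lengths, that in share was 2.13 with an ARS distance of 5 kb, and that in percentile was -0.99 without Ty summits and -2.27 without repeated 75 bases. Leaving out 1 list, it ranged from -13.5 to 14.5 in number, from -6.02 to 1.41 in share and from -6.07 to 3.44 in the share in Ty elements, and within minus between concordance was 4.68 with an ARS distance of 5 kb. The causes were not tested.

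Concordance between CDK bypass and control was 87.3% with an ARS distance of 5 kb, 92.9% with 1 summit per 5 kb, 86.8% with windows of 1 kb, 94.7% with 1 value per site and 89.1% without Ty summits. That between CDK/DDK bypass and control was 25.9% with windows of 1 kb, 47.5% with 1 value per site, 62.1% without Ty summits and 66.0% without repeated 75 bases. That between CDK/DDK bypass and CDK bypass was 30.2% with an ARS distance of 5 kb, 46.8% with 1 summit per 5 kb, 29.9% with windows of 1 kb, 43.8% with any nuclear summit as partner, 48.1% with 1 value per site, 65.8% without Ty summits and 64.2% without repeated 75 bases.

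Sites of both control lists and no CDK/DDK bypass list numbered 16, and 26 with an ARS distance of 5 kb, 4 without Ty summits and 3 without repeated 75 bases. For CDK bypass the numbers were 16, 30, 3 and 3. Sites of CDK bypass and no control list numbered 6 with an ARS distance of 5 kb and 1 with windows of 1 kb, and those of CDK/DDK bypass and no control list 1 with windows of 1 kb. Leaving out 1 list gave 0 to 1 for CDK bypass and no control list and for control and no CDK bypass list, 0 to 2 for CDK/DDK bypass and no control list, and 0 to 1 for CDK/DDK bypass and no CDK bypass list.

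Replicates share numbers in the labels, but nothing there says that a number marks a common batch. Across the 33 sites, replicate 2 minus 1 summits correlated at 0.72 between CDK bypass and control, -0.22 between CDK/DDK bypass and control and -0.03 between both bypass groups. With the replicate block CDK/DDK bypass minus control was -43 summits and CDK/DDK bypass minus CDK bypass -43.5, and the smallest p that 2 pairs allow is 0.5, so 0 of 5 measures passed with numbered pairs of CDK/DDK bypass and control and 0 with crossed pairs, a choice made after seeing the data. Depth is unknown, so a missing call cannot be told from a site that depth left undetected.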
